A study of Homo sapiens with 6 samples.

Results

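A set of 10 developmental genes of the basic helix-loop-helix (bHLH) family was examined for H3K27me3 in 3 lymphoma cell lines: the neurogenins NEUROG1, NEUROG2 and NEUROG3, the related neuronal and endocrine factors NEUROD1 and ATOH1, the oligodendrocyte factors OLIG1 and OLIG2, and the mesodermal factors TWIST1, HAND1 and HAND2. The 10 genes were chosen by name, and an enriched interval, called an island, was assigned to a gene where it came within 5 kb of the interval of the gene on hg19. Of 72972 islands in the 3 lists, 23 met this rule, 7 of 21320 in Pfeiffer, 9 of 23180 in WSU-DLCL2 cells and 7 of 28472 in KARPAS-422 cells. OLIG1 and OLIG2 lie close together on chromosome 21 and share an island in every line. Pfeiffer, WSU-DLCL2 and KARPAS-422 are established lines of diffuse large B cell lymphoma, all labelled EZH2 mutant, with average gIC50 values of 28, 134 and 232 nM on the labels, which do not name the mutation or the compound. The lines are given in that order. The series concerns lines that respond differently to GSK126, an inhibitor of EZH2. No drug treatment is given on the labels, and 1 H3K27me3 library with 1 input library stands for each line, so differences between lines have no replicate behind them and carry no p-value. The lists hold no expression values, so the identity of the lines was not checked against marker genes and nothing here measures the activity of the 10 genes.

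Trimethylation of lysine 27 of histone H3 is laid down by Polycomb repressive complex PRC2, whose catalytic subunit is EZH2, and marks genes kept silent. Proteins of the bHLH family bind DNA as dimers through a basic region and join through the helix-loop-helix. The tissue-restricted members usually pair with broadly expressed E proteins on the E-box motif CANNTG and switch on programmes of neurons, glia, endocrine cells, muscle or mesenchyme. In cells of other lineages the genes of such factors are textbook targets of Polycomb, and many have promoters rich in CpG, the dinucleotide that Polycomb targets often carry in dense stretches.

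The promoters of 7 of the 10 genes were found in RefSeq (GRCh38.p14), and OLIG1, OLIG2 and TWIST1 were not matched. Each promoter has 300 bases, 250 before and 50 after the start of the gene. The following 4 are shown because they span the range of CpG content and of marking: NEUROG1 and NEUROG2 had islands in all 3 lines, HAND2 in WSU-DLCL2 alone and ATOH1 in Pfeiffer alone. They are written 5′ to 3′ on the strand of the gene with every CG in capitals, and their coordinates belong to GRCh38.p14, not to the build of the islands.
NEUROG1, chr5:135535915-135536214, minus strand: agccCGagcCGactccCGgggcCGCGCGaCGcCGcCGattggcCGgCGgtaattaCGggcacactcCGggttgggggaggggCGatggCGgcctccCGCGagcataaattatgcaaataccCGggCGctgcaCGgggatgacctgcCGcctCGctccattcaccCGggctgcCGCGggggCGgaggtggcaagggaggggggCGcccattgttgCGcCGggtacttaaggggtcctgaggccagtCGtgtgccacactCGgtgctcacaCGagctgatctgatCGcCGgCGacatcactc
NEUROG2, chr4:112516131-112516430, minus strand: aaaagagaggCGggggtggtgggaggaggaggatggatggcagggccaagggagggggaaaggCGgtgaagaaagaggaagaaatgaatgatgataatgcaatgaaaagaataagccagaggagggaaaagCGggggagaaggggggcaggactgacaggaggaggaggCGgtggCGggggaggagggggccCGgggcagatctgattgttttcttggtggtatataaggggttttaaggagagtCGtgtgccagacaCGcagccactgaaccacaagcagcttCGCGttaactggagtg
HAND2, chr4:173530180-173530479, minus strand: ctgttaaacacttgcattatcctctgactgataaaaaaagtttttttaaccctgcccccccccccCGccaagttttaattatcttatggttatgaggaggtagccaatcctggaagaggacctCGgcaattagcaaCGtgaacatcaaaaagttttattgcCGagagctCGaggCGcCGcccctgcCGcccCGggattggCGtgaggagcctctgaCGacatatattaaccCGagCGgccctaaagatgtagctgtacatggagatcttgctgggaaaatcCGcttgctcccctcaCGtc
ATOH1, chr4:93828503-93828802, plus strand: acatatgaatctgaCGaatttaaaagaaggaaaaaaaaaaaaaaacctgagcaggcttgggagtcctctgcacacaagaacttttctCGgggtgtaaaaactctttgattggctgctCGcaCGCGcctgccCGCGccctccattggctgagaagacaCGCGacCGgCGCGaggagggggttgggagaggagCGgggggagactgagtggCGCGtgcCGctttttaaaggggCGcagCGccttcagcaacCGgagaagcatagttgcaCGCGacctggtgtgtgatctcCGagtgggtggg
NEUROG1 held 35 CpG in these 300 bases and NEUROG2 held 10, while the median of all 35116 promoters in the table was 14 (quartiles 4 and 28). ATOH1 had 22 and HAND2 15, and of the promoters not shown NEUROG3 and NEUROD1 had 31 each and HAND1 21. Thus 6 of the 7 lay above the median. NEUROG2, the exception, had islands in all 3 lines, so that CpG number in this short window did not order the genes by marking. The E-box motif CANNTG, which reads the same on both strands, was found in ATOH1, HAND2 and NEUROG3, or 3 of 7 promoters, against 68.7% of all promoters. A match or its lack describes these letters only.

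Of the 10 genes, 6 had an island within 5 kb in all 3 lines: NEUROG1, NEUROG2, NEUROG3, OLIG1, OLIG2 and HAND1. NEUROD1 had islands in Pfeiffer and WSU-DLCL2, HAND2 in WSU-DLCL2 alone, ATOH1 in Pfeiffer alone, and TWIST1 in none. By line, 8 genes had an island in Pfeiffer, 8 in WSU-DLCL2 cells and 6 in KARPAS-422 cells. An island met the gene interval itself at 8, 5 and 6 genes, since OLIG1, OLIG2 and HAND2 had islands in WSU-DLCL2 only beside the gene. In all 3 lines an island met the gene interval itself at 4 genes. For the background the autosomes were tiled into windows of 13.5 kb, and 32.3% of them met an island in Pfeiffer, 32.1% in WSU-DLCL2 cells and 33.3% in KARPAS-422 cells. All 3 lines had an island in 21.6% of these windows, exactly 2 lines in 10.7%, exactly 1 line in 11.3% and no line in 56.3%. Unassembled stretches were not removed from the tiling, and the windows are not gene starts. The pair of OLIG genes counts as 2 genes but as 1 locus.

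**Figure D1:**
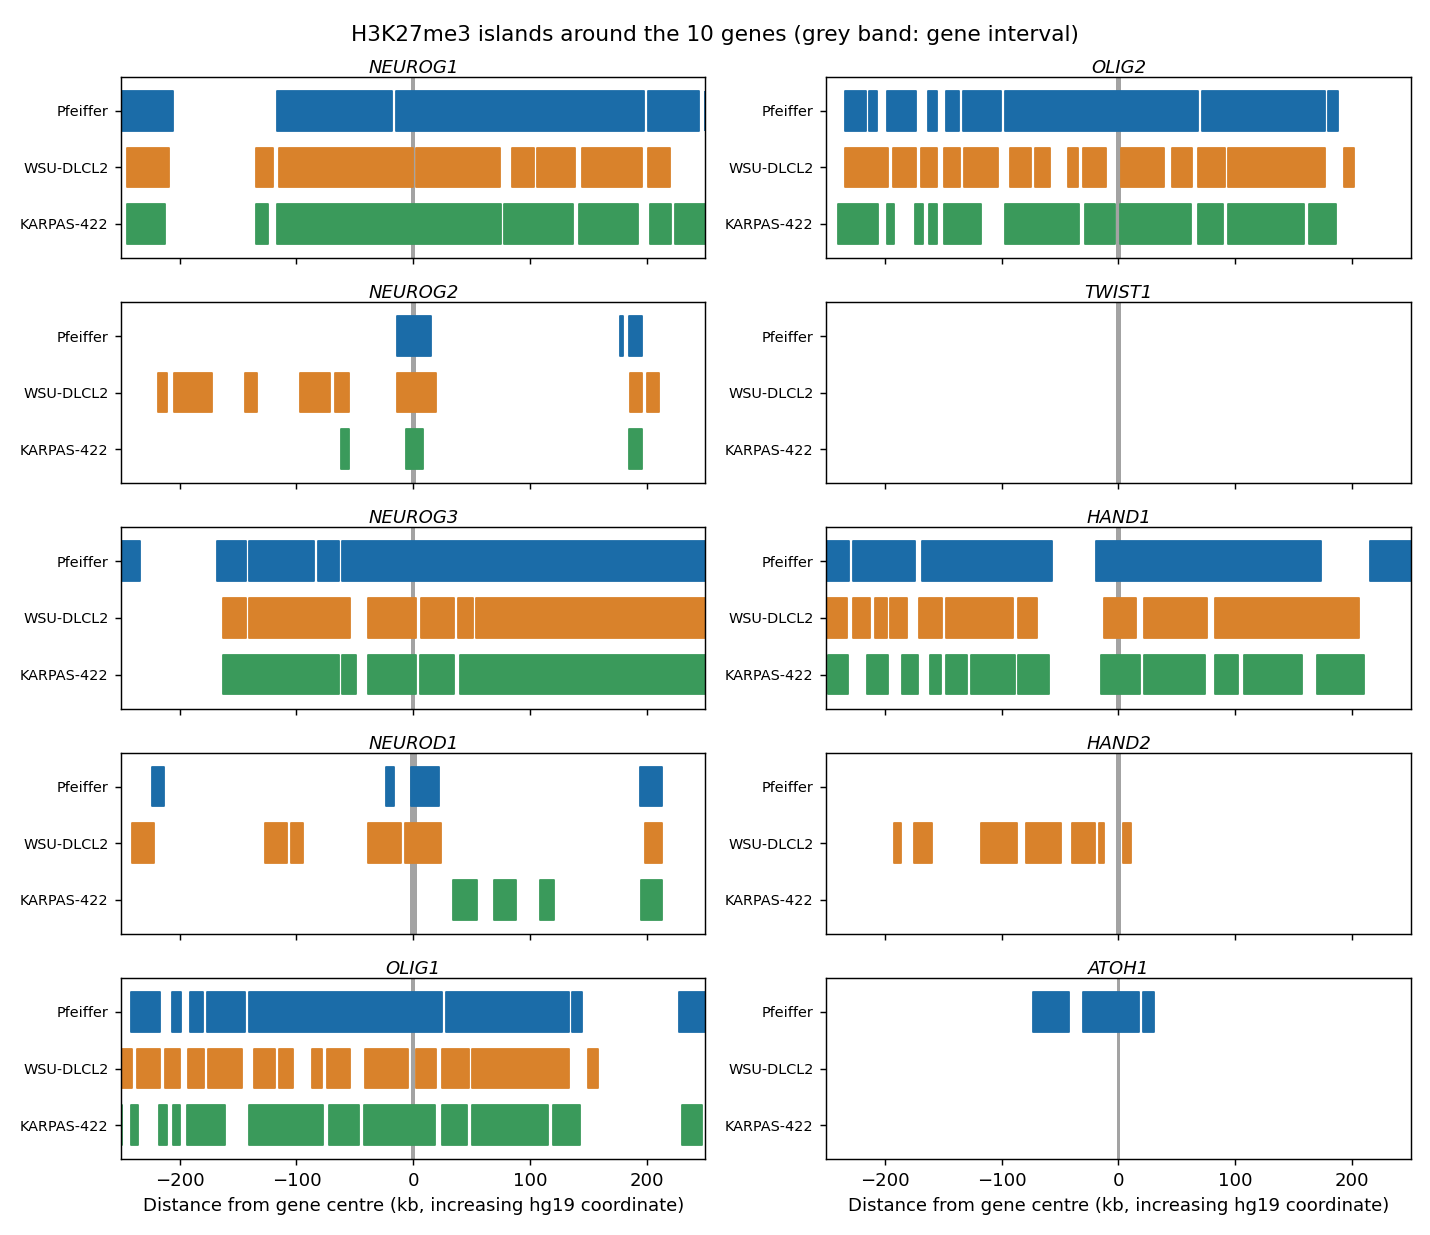
Map of the H3K27me3 islands around each of the 10 genes, 250 kb to either side of the gene centre on the horizontal axis (kb, increasing hg19 coordinate), with 1 row per line and the gene interval as a grey band. NEUROG1, NEUROG3, OLIG1, OLIG2 and HAND1 lie in broad marked surroundings in all 3 lines, NEUROG2 in islands of 28.5, 33 and 14.25 kb, and TWIST1 in an unmarked stretch.

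The covered share, the part of the window from 5 kb below to 5 kb above a gene that lies in islands, was highest in Pfeiffer over the 10 genes together. Islands covered 74.8% of the 10 windows in Pfeiffer, 54.7% in WSU-DLCL2 cells and 52.2% in KARPAS-422 cells, and 40.6% was covered in all 3 lines. The mean covered share of the autosomal windows was 25.6%, 24.8% and 24.7% in the same lines. An autosomal share of bases covered in all 3 lines was not computed. The lead of Pfeiffer was smaller under other settings. With islands under 5 kb apart joined, the shares of the 10 windows were 74.8%, 60.4% and 57.6%. The median share per gene was 100%, 57.7% and 72.2% with 5 kb on either side. With 250 kb it was 46.5%, 45.4% and 39.9%. Windows covered from end to end numbered 7 of 10 in Pfeiffer, 2 in WSU-DLCL2 cells and 3 in KARPAS-422 cells, against 16.9%, 15.6% and 14.2% of the autosomal windows in the same lines. HAND1 alone was covered from end to end in all 3 lines with the islands as listed. These counts depend on short gaps: with islands under 5 kb apart joined, 7 windows were covered from end to end in Pfeiffer, 5 in WSU-DLCL2 cells and 5 in KARPAS-422 cells, and NEUROG1, NEUROG3 and HAND1 in all 3 lines. With the gene interval alone the counts were 7, 4 and 5, and NEUROG2, NEUROG3 and HAND1 were covered from end to end in all 3 lines.

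**Figure D2:**
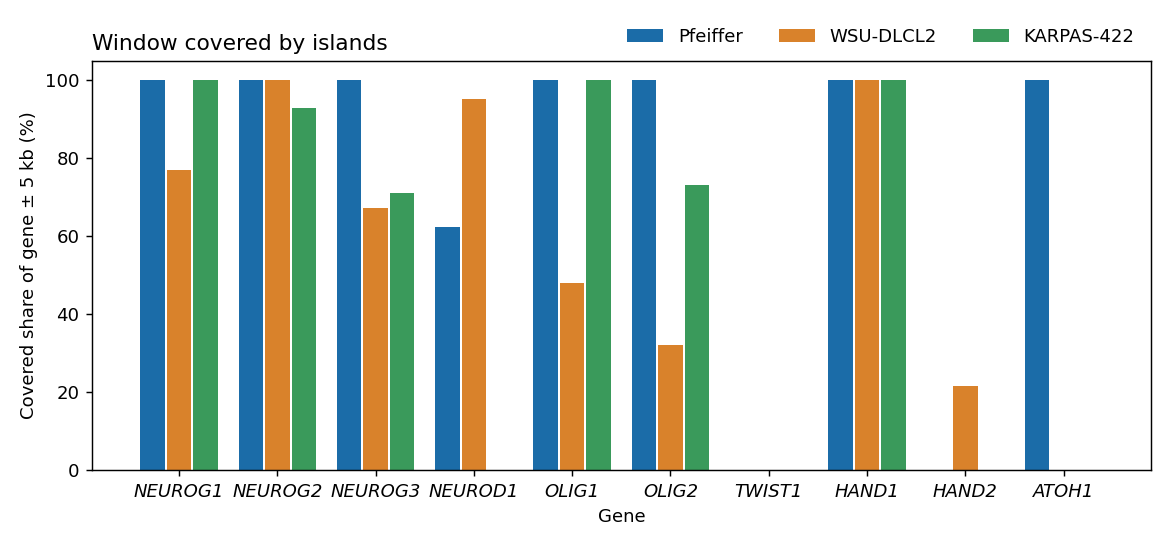
Covered share of each gene with 5 kb on either side (vertical axis, percent) in Pfeiffer, WSU-DLCL2 and KARPAS-422, 1 bar per line and gene. Pfeiffer reaches 100% at 7 genes, and TWIST1 has no bar in any line.

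The neurogenins start neuronal or endocrine fates, NEUROG1 and NEUROG2 in the nervous system and NEUROG3 in the pancreas and gut, and all 3 genes were marked in every line. NEUROG1 (chromosome 5, 134869001 to 134872000) had 6684 H3K27me3 reads and 3579 input reads in 1 island of Pfeiffer. WSU-DLCL2 had 4990 and 2238 reads in 2 islands, and KARPAS-422 had 4638 and 1497 reads in 1 island. The islands were long in all 3 lines, 212.25 kb in Pfeiffer, 114.75 and 71.25 kb in WSU-DLCL2 cells and 191.25 kb in KARPAS-422 cells. Their sides differed: in Pfeiffer the island reached 13 kb below the gene and 196.25 kb above it. In WSU-DLCL2 the islands reached 113.5 kb below and 72.5 kb above, and in KARPAS-422 the island reached 115 kb below and 73.25 kb above. The neighbours in RefSeq are TIFAB on the lower side and CXCL14, a chemokine gene, on the higher side. Over the stretch covered by any of them (134754001 to 135068250, 314.25 kb) islands covered 98.8% in Pfeiffer, 91.6% in WSU-DLCL2 cells and 95.7% in KARPAS-422 cells.

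Fold over input, the ratio of H3K27me3 to input reads after scaling the libraries, was 1.61 for the NEUROG1 island in Pfeiffer (95% interval 1.54 to 1.68), 1.76 for the islands in WSU-DLCL2 cells (1.67 to 1.85) and 1.88 for the island in KARPAS-422 cells (1.78 to 2.00). These intervals are exact for counting error only and leave out variation between libraries. Amplified reads that copy the same molecule would make them too narrow still, and whether such reads were removed is not stated. Over the common stretch of 314.25 kb the folds lay closer, 1.69 in Pfeiffer (1.64 to 1.75), 1.65 in WSU-DLCL2 cells (1.58 to 1.71) and 1.78 in KARPAS-422 cells (1.70 to 1.86). Input was raised around NEUROG1 in Pfeiffer: relative to the median of the line, input reads per kb of islands stood at 1.54 in Pfeiffer, 1.10 in WSU-DLCL2 cells and 1.05 in KARPAS-422 cells. H3K27me3 reads per kb of the islands were 1.60, 1.28 and 1.21 times the median of the list in the same order of lines. The part of the raised input, a stand-in for DNA copy number, in the length of the Pfeiffer island was not tested.

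NEUROG2 (chromosome 4, 113434001 to 113438000) was the neurogenin with the shortest Pfeiffer island. Pfeiffer had 578 H3K27me3 and 292 input reads in an island of 28.5 kb from 113422501 to 113451000. The island of WSU-DLCL2 held 790 and 353 reads in 33 kb from 113422501 to 113455500, and that of KARPAS-422 held 314 and 108 reads in 14.25 kb from 113430001 to 113444250. Against the median island of their lists (20.25, 18.75 and 15.75 kb), those of Pfeiffer and WSU-DLCL2 were longer and that of KARPAS-422 was shorter. The KARPAS-422 island lay inside the others, and 14.25 kb of the 33 kb was covered in all 3 lines. Folds were 1.70 (1.48 to 1.97), 1.76 (1.55 to 2.00) and 1.77 (1.42 to 2.22) in Pfeiffer, WSU-DLCL2 and KARPAS-422, with overlapping intervals. In the 250 kb to either side, islands covered 8.33% in Pfeiffer, 27.8% in WSU-DLCL2 cells and 6.55% in KARPAS-422 cells, against autosomal means of 25.6%, 24.8% and 24.7%. Relative input was 0.93, 1.04 and 1.01 in the same order.

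NEUROG3 (chromosome 10, 71331001 to 71334000) lay in the longest island of the set. In Pfeiffer that island ran for 474 kb from 71271751 to 71745750, longer than 99.9% of the islands in its list, and held 12782 H3K27me3 and 5655 input reads. WSU-DLCL2 had an island of 41.25 kb from 71293501 to 71334750 with 804 and 435 reads. KARPAS-422 had an island with the same ends, and another of 29.25 kb from 71338501, with 1503 and 582 reads in both together. In WSU-DLCL2 and KARPAS-422 the mark stopped 0.75 kb above the gene interval and resumed after 4.5 and 3.75 kb. RefSeq places the gene on the minus strand, so this break lay on the side of its start. The surroundings were marked in these lines too. In the 250 kb to either side of the gene, islands covered 85.1% in Pfeiffer, 76.5% in WSU-DLCL2 cells and 78.2% in KARPAS-422 cells. Pfeiffer can have no gap in the 474 kb stretch, because its island sets the ends. Of that stretch 93.5% was covered in WSU-DLCL2 by 5 islands and 95.7% in KARPAS-422 by 4 islands. Fold over these islands, of which 1 in WSU-DLCL2 reached beyond the stretch, was 1.95 in Pfeiffer (1.89 to 2.01), 1.76 in WSU-DLCL2 cells (1.71 to 1.82) and 2.03 in KARPAS-422 cells (1.95 to 2.11), the lowest in WSU-DLCL2. At the islands within 5 kb it was 1.95, 1.46 (1.29 to 1.64) and 1.57 (1.43 to 1.73). In WSU-DLCL2 and KARPAS-422 the pieces next to the gene thus had lower folds than the domain as a whole, and relative input was 1.09, 1.07 and 0.97 in the 3 lines.

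NEUROD1, which acts after the neurogenins in neurons and in insulin-producing cells, had islands of low fold in Pfeiffer and WSU-DLCL2 and none in KARPAS-422. On chromosome 2 (182540001 to 182546000) Pfeiffer had 386 H3K27me3 and 231 input reads in an island of 24 kb that covered 83.3% of the gene. WSU-DLCL2 had 562 and 311 reads in an island of 30.75 kb over the whole gene. The folds of 1.44 in Pfeiffer (1.22 to 1.70) and 1.42 in WSU-DLCL2 (1.24 to 1.64) were higher than those of only 28.0% and 30.8% of the islands in their lists. KARPAS-422 had no island at NEUROD1, and its nearest one began 31 kb above the gene at 182577001, with a fold of 1.20 (1.01 to 1.44). Input relative to the median stood at 0.92, 0.96 and 1.05 in the 3 lines, and its part in the difference was not tested. Reads may still lie where no island is listed, since the lists show only what passed the caller.

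ATOH1, needed for hair cells of the inner ear, granule neurons of the cerebellum and secretory cells of the gut, was marked in Pfeiffer alone. Its island on chromosome 4, from 94719751 to 94768500, was 48.75 kb long with 858 H3K27me3 and 538 input reads, and the gene interval (94749001 to 94752000) lay wholly inside it. The fold of 1.37 (1.23 to 1.53) ranked above only 18.2% of the Pfeiffer islands, so this is a broad, weak island. In WSU-DLCL2 the nearest island was 357.75 kb away, and in KARPAS-422 it was 494.25 kb away. The gene lay between islands 4734.75 kb apart in WSU-DLCL2 and 3228.75 kb apart in KARPAS-422. Islands around it were too few to read the input of WSU-DLCL2 and KARPAS-422 there, so a difference in DNA copy number cannot be told apart from a difference in the mark.

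The oligodendrocyte genes OLIG1 and OLIG2 lay in a single island on chromosome 21 in Pfeiffer, and the other lines had several islands over its length. OLIG2, also a determinant of motor neurons, lies at 34398001 to 34402000, and OLIG1, which acts in the maturation of oligodendrocytes, at 34442001 to 34445000. In Pfeiffer an island of 165.75 kb from 34302751 to 34468500 held 3547 H3K27me3 and 1798 input reads and covered both genes. Pfeiffer can have no gap in this stretch, because that island sets its ends. The next Pfeiffer islands ended at 34299750 and began at 34471501. The same stretch held 7 islands in WSU-DLCL2, covering 69.2% of it, and 4 islands in KARPAS-422, covering 91.4%, of which 1 in each line reached beyond it. Fold over these islands was 1.70 in Pfeiffer (1.60 to 1.80), 1.67 in WSU-DLCL2 cells (1.56 to 1.78) and 1.73 in KARPAS-422 cells (1.62 to 1.85). The intervals overlapped, while the covered share was lowest in WSU-DLCL2. Relative input was 0.96, 0.92 and 0.92.

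Some of the breaks lay on the genes. Of 6 gaps between the islands of WSU-DLCL2 over this stretch 2 lay on a gene and 4 on neither, among them the longest, 15.75 kb from 34341001 to 34356750. Of 3 gaps in KARPAS-422 cells, 1 lay on a gene and 2 on neither. In WSU-DLCL2 a gap of 6.75 kb from 34439251 to 34446000 held the whole OLIG1 interval. Another gap of 12.75 kb, from 34389751 to 34402500, held the whole OLIG2 interval. KARPAS-422 had a gap of 3.75 kb from 34397251 to 34401000 that held 75% of OLIG2, while OLIG1 was wholly covered. The covered share of the gene with 5 kb on either side was 100% in Pfeiffer, 48.1% in WSU-DLCL2 cells and 100% in KARPAS-422 at OLIG1. At OLIG2 it was 100%, 32.1% and 73.2%. The WSU-DLCL2 shares moved with the window, at OLIG1 from 0% of the gene interval alone to 14.3% with 2 kb and 80.2% with 20 kb on either side, and at OLIG2 from 0% to 18.75% and 71.0%. OLIG2 was 25% covered in KARPAS-422 with the gene interval alone and 100% with islands under 5 kb apart joined. NEUROG1 showed such a gap too in WSU-DLCL2, 3 kb from 134870251 to 134873250, which took 58.3% of the gene interval on the side of its start. The caller bridges shorter gaps, and the shortest break between listed autosomal islands was 3 kb, so smaller dips inside an island cannot be seen.

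Counted over the 10 genes, bases of a gene interval in gaps of up to 7.5 kb came to 0 kb in Pfeiffer, 4.75 kb in WSU-DLCL2 cells and 3 kb in KARPAS-422 cells. This is 20.7% of the 23 kb of gene intervals that lay in marked stretches in WSU-DLCL2 and 14.3% of the 21 kb in KARPAS-422, where a stretch means islands joined over such gaps. Over all stretches on the autosomes, 4.66% of the length lay in such gaps in Pfeiffer, 5.13% in WSU-DLCL2 cells and 6.5% in KARPAS-422 cells. The values rest on 2 genes in WSU-DLCL2 (NEUROG1 and OLIG1) and 1 gene in KARPAS-422 (OLIG2). The limit of 7.5 kb was set after the gaps had been seen. In WSU-DLCL2 it takes in the gap of 6.75 kb at OLIG1 and leaves out, among others, that of 12.75 kb at OLIG2, so the shares depend on it.

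**Figure D3:**
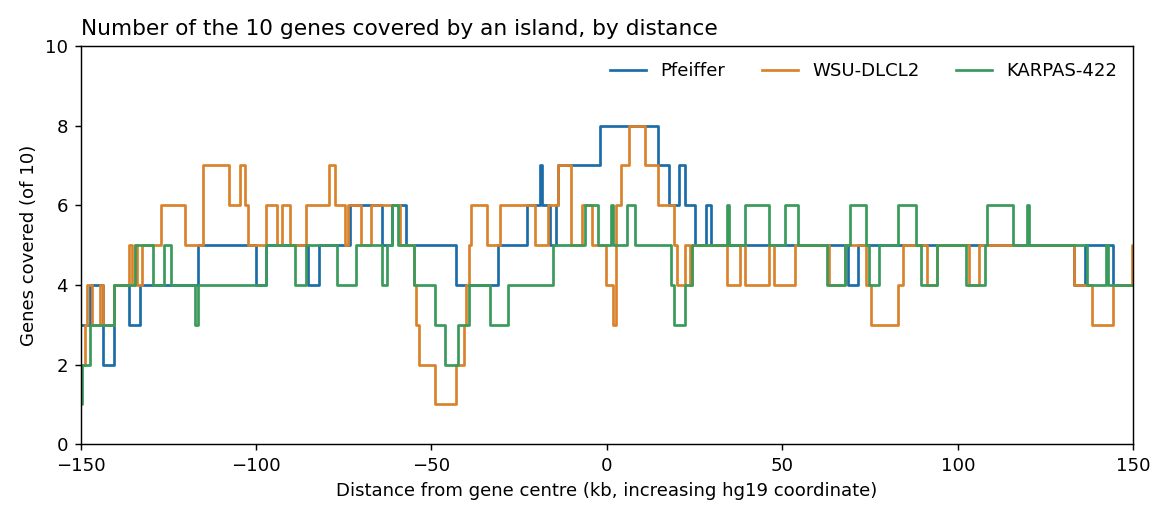
Number of the 10 genes covered by an island (vertical axis) at each distance from the gene centre (horizontal axis, kb, increasing hg19 coordinate), 1 line per cell line, with both OLIG genes counted. At the centre 8 genes are covered in Pfeiffer, 4 in WSU-DLCL2 cells and 5 in KARPAS-422 cells, and WSU-DLCL2 stands at 8 from 6.75 to 10.5 kb above it. The count of WSU-DLCL2 swings as widely far from the centre, with 1 at -48.75 kb and 7 at -114.75 kb.

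HAND1 and HAND2, partners in the development of the heart, HAND2 also in sympathetic neurons and limbs, were marked very differently. HAND1 (chromosome 5, 153854001 to 153858000) was wholly covered in every line. Pfeiffer had 5646 H3K27me3 and 2964 input reads in an island of 192.75 kb from 153837001 to 154029750. WSU-DLCL2 had 590 and 314 reads in 27 kb from 153843751 to 153870750, and KARPAS-422 had 583 and 264 reads in 33.75 kb from 153840751 to 153874500. The lower ends of these islands lay within 6.75 kb of each other, and the difference in length came from the higher side, where Pfeiffer reached 171.75 kb beyond the gene, WSU-DLCL2 12.75 kb and KARPAS-422 16.5 kb. Further islands followed after short gaps in both other lines, so that 88.7% of the Pfeiffer domain was covered in WSU-DLCL2 and 82.1% in KARPAS-422.

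Fold at the HAND1 islands themselves was 1.64 in Pfeiffer (1.57 to 1.72), 1.48 in WSU-DLCL2 cells (1.29 to 1.70) and 1.34 in KARPAS-422 cells (1.16 to 1.56), the last above only 12.6% of the islands in its list. Over all islands that meet the Pfeiffer domain, of which 1 in WSU-DLCL2 and 1 in KARPAS-422 reached beyond it, the folds were 1.64 (1.57 to 1.72), 1.71 (1.63 to 1.80) and 1.65 (1.55 to 1.76), with overlapping intervals. Input around HAND1 was again raised in Pfeiffer, at 1.41, against 1.05 in WSU-DLCL2 cells and 1.04 in KARPAS-422 cells. Reads per kb of H3K27me3 in the islands were 1.49, 1.04 and 0.86 times the median of each list. The part of the input in the longer island of Pfeiffer was not tested.

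HAND2 (chromosome 4, 174447001 to 174452000) had no base of its own interval covered in any line. In WSU-DLCL2 an island of 6.75 kb began 1.75 kb above it, from 174453751 to 174460500, which is the side of its start on the minus strand. That island held 141 H3K27me3 and 78 input reads and had a fold of 1.42 with a wide interval (1.07 to 1.90). Islands covered 22.4% of the 250 kb to either side in WSU-DLCL2 and none of it in Pfeiffer and KARPAS-422. The gene lay between islands 13956 kb apart in Pfeiffer and 18207 kb apart in KARPAS-422. Input could not be read there in these lines, and copy number and mark cannot be told apart.

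TWIST1 (chromosome 7, 19154001 to 19158000), a factor of mesoderm and mesenchyme, had no island near it in any line. Its nearest islands were 1104.75 kb away in Pfeiffer, 524.25 kb in WSU-DLCL2 cells and 449 kb in KARPAS-422 cells. The stretch between the islands on either side measured 2539.5, 1080 and 1044 kb. Input from more distant islands was 0.91, 1.37 and 1.01 times the median, and the part of copy number in the absence of an island was not tested. Gaps of at least 1 Mb between islands held 33.4% of the autosomal length in Pfeiffer, 32.5% in WSU-DLCL2 cells and 29.2% in KARPAS-422 cells. Among the 10 genes such gaps held TWIST1 and HAND2 in Pfeiffer, TWIST1 and ATOH1 in WSU-DLCL2 cells and all 3 of these in KARPAS-422 cells.

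Most islands at the 10 genes were longer than the median of their list, a measure that the choice by window favours, while their median folds lay near those of the lists. Among the distinct islands 7 of 7 in Pfeiffer, 7 of 9 in WSU-DLCL2 cells and 6 of 7 in KARPAS-422 were longer than the median of their list, which was 20.25, 18.75 and 15.75 kb. Their own median lengths were 165.75, 33 and 33.75 kb. Folds did not stand as far out: 5 of 7, 5 of 9 and 4 of 7 exceeded the median of their list. Their median folds were 1.64 in Pfeiffer, 1.56 in WSU-DLCL2 cells and 1.64 in KARPAS-422 cells, against 1.58, 1.54 and 1.61 for all autosomal islands of these lines. The highest were 1.95 for the NEUROG3 island of Pfeiffer, 1.82 for the lower NEUROG1 island of WSU-DLCL2 and 1.88 for the NEUROG1 island of KARPAS-422. No island at the 10 genes reached a fold of 2, which 10.5% of autosomal islands reached in Pfeiffer, 11.3% in WSU-DLCL2 cells and 19.6% in KARPAS-422 cells. A long island meets a window more easily than a short one, which favours long islands in this choice.

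**Figure D4:**
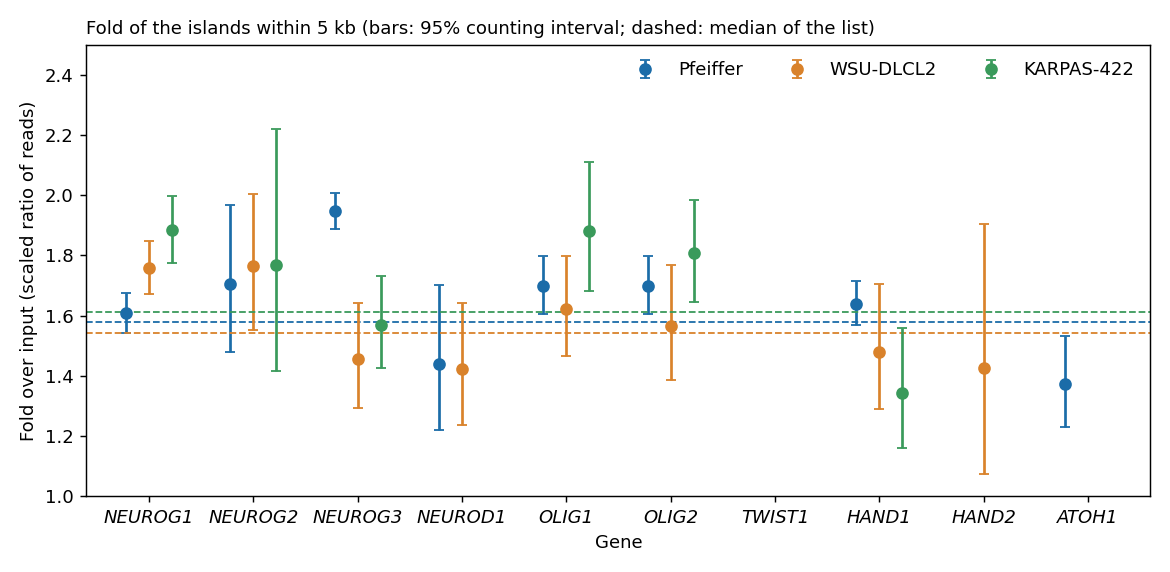
Fold over input (vertical axis, scaled ratio of reads) of the islands within 5 kb of each gene, with 95% counting intervals as bars and the median fold of each list as a dashed line; genes without an island in a line have no point. All points lie under 2, and NEUROG3 in Pfeiffer is the highest at 1.95.

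Added up, the distinct islands at these genes held 30481 H3K27me3 and 15057 input reads in Pfeiffer, 9045 and 4296 in WSU-DLCL2 cells and 8836 and 3056 in KARPAS-422 cells. Of the H3K27me3 reads in Pfeiffer, 12782 lay in the island at NEUROG3, 6684 at NEUROG1, 5646 at HAND1 and 3547 at the OLIG genes. Relative input in Pfeiffer was 1.54 at NEUROG1 and 1.41 at HAND1, as given above, and its part in these numbers was not tested. Each island counts in full, so a long unbroken island adds more reads than the nearest piece of a broken domain. Over the stretch that these islands span in any line, all islands held 12782, 13366 and 11624 H3K27me3 reads at NEUROG3 in the 3 lines. At NEUROG1 they held 10450, 7266 and 7119, at HAND1 5646, 4756 and 3740, and at the OLIG genes 3547, 2928 and 3458. Some islands of WSU-DLCL2 and KARPAS-422 reached beyond these stretches. All autosomal islands held 17024803, 17188115 and 16039824 H3K27me3 reads in the 3 lines.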

How the data were processed

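H3K27me3 in Pfeiffer, WSU-DLCL2 and KARPAS-422 was mapped by chromatin immunoprecipitation and sequencing, with 1 library and 1 input per line. The submitters' processing notes name Bowtie, SICER and hg19, without versions. Windows of 750 bases, gaps up to 2250 bases and a false discovery limit of 0.001 are stated in the names of the deposited lists. Each deposited list gives whole counts of H3K27me3 and input reads per island, a p-value, a fold (the ratio of both counts after scaling the libraries) and a false discovery rate, as a q-value. The authors made these values per island. Sources used here do not give the read filters. Reads outside islands are not in the lists, and library depth is therefore unknown.

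The 10 genes, their intervals and the lists were chosen with earlier results of these data known. Bases were counted on the grid of the islands. The scaling recovered from the deposited folds (1.16 in Pfeiffer, 1.27 in WSU-DLCL2 cells and 1.65 in KARPAS-422) was used for folds of summed counts, with exact 95% Clopper-Pearson intervals for the ratio of counts, for counting error only. Relative input was pooled over islands centred in a bin of 1 Mb or up to 2 Mb from it, with 30 kb of islands as the minimum, and expressed relative to the median bin of the line. All 10 genes are named in every line. No hg19 annotation was used here, so the planned list of other bHLH genes was not run. The planned comparison of protein sequences was not run either. Overlap counts and intervals were tested on simulated data. Alternatives changed the distance, the false discovery rate, the minimum fold, the overlap, the joining of islands, the scaling and the length of the lists. The software was Python 3.11.15 with numpy 2.4.6, scipy 1.17.1, pandas 2.3.3 and matplotlib 3.10.9.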

Additional observations from a re-analysis of the deposited data

How the results depend on the processing

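The number of genes with an island was the same at a distance of 2 or 20 kb in all 3 lines, and at a false discovery rate of 1e-10 it changed only in WSU-DLCL2, to 7 genes, by the loss of HAND2. With islands of a fold of at least 2 alone, 0 genes had an island in Pfeiffer, 0 in WSU-DLCL2 cells, 0 in KARPAS-422 and 0 in all 3 lines, the covered share was 0% in each line, 0 windows were covered from end to end in any line, and no domain length could be given. With the gene interval alone WSU-DLCL2 had 5 genes with an island and a covered share of 46.8%, and 4 genes had an island in all 3 lines. Windows covered from end to end then numbered 4 in WSU-DLCL2 cells, 5 in KARPAS-422 cells and 3 in all 3 lines. With 2 kb on either side 2 windows were so covered in all 3 lines, and with 20 kb 3 in Pfeiffer, 0 in WSU-DLCL2 cells, 1 in KARPAS-422 cells and 0 in all 3 lines. Where 1 island had to cover at least 50% of the window, 4 genes were left in WSU-DLCL2 and 3 in all 3 lines. Counts divided by the totals in autosomal islands, in place of the library ratio, gave pooled folds of 1.05 in Pfeiffer, 1.01 in WSU-DLCL2 cells and 1.03 in KARPAS-422 cells, against 1.74, 1.66 and 1.76, since the average island then stands near 1. Joining islands under 5 kb apart raised the median domain of Pfeiffer to 264 kb from 165.75 kb, and the windows covered from end to end to 5 in WSU-DLCL2 cells, 5 in KARPAS-422 cells and 3 in all 3 lines. Of 30 covered shares of single windows, 5 moved by over 1.5 times with the gene interval alone, 3 with 2 kb, 5 with 20 kb, 1 at the stricter false discovery rate, 22 at a fold of 2 and 0 with islands joined. Lists of equal length left the share covered in all 3 lines at 40.6%. Background windows in bins of 1 Mb that hold an island in any line, an alternative chosen after seeing the data, met an island in 39.7%, 39.4% and 40.8%. Alternatives for the other bHLH genes were not run. No paired analysis was possible because each line had 1 library and no result comes from a test between lines.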

Other observations

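Island ends on the same position of the grid were counted for pairs of lines within 100 kb of the 10 genes. Of the 32 islands of WSU-DLCL2 there, 6 shared their lower end with an island of KARPAS-422 and 2 their higher end. On all autosomes 13.5% of the lower and 13.2% of the higher ends of WSU-DLCL2 islands were shared with KARPAS-422. Of the 16 islands of Pfeiffer there, 2 shared the lower end with WSU-DLCL2 and 3 with KARPAS-422, against 12.7% and 13% on all autosomes. The higher end was shared by 1 of the 16 with WSU-DLCL2 and by 1 with KARPAS-422, against 12.5% and 12.8% on all autosomes. Counts this small do not separate the surroundings of the genes from the rest, although the NEUROG3 island from 71293501 to 71334750 had the same ends in WSU-DLCL2 and KARPAS-422.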
